A study of Bos taurus with 7 samples.

Results

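The genes described here encode the respiratory chain and the ATP synthase of the mitochondrial inner membrane. They were taken as every non-control probe whose gene name in the array files begins with NDUFA, NDUFB, NDUFC, NDUFS, NDUFV, UQCR, COX4 to COX8, SDHA to SDHD, or ATP5. This rule, which uses names and no measured value, selected 91 of 15008 probes, carrying 90 gene names because COX6B1 had 2 probes. Single-colour Agilent arrays read their RNA in 7 Holstein calves, with 1 array per calf, from the stratified, cornified epithelium that lines the rumen. The HAY group received forage (n = 3, calves 9, 10 and 13), and the CON group received none (n = 4, calves 8, 11, 12 and 14). The design text places this division 3 weeks after weaning, and no label gives an age or a sex. The series concerns forage, calf starter and rumen pH around weaning, and the comparison asks how the epithelium differs with forage.

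The respiratory chain passes electrons from NADH through complex I, or from succinate through complex II, to ubiquinone, then through complex III and cytochrome c to complex IV, which reduces oxygen. Complexes I, III and IV pump protons, and the ATP synthase uses the resulting gradient to make ATP. Most subunits are encoded in the nucleus and a small set in mitochondrial DNA. The rumen epithelium takes up short-chain fatty acids from fermentation and oxidises part of them, butyrate above all, so that these complexes serve its main fuels.

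Several of the results below turn on what a probe reads, so the relevant probes are shown first, as the deposited files print them, 5′ to 3′. Positions are those in the files, on build UMD_3.1, and no exon annotation of that build was used here. Capitals mark the letters AATAAA, the polyadenylation signal that lies near the end of most messenger RNAs. Both COX6B1 probes are given because they carry 1 gene name and lie on different chromosomes. The first lies at chr5:94363872-94363931 on the plus strand and is shown whole. The second, at chr18:46574257-46574316 on the plus strand, is shown by its last 30 bases, as are the others. The COX7B2 probe (chr6:66982153-66982212, minus strand) read the widest range over calves among these genes. The NDUFA3 probe (chr18:63463458-63463517, minus strand) and the UQCRB probe (chr14:70329473-70329532, minus strand) gave the smallest unadjusted p among differences above 0. The COX7A1 probe, which the files do not place, was well above background on no array.
COX6B1, chromosome 5: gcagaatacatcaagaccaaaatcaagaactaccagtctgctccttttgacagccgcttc
COX6B1, chromosome 18: aactaatAATAAAtgctcgttggaaacgtg
COX7B2: caatttgttctttaagcactctgctgctca
NDUFA3: tcagatttatgtccttgtctgggttcccag
UQCRB: tctaacctaaaaaatttggccctgtgaagg
COX7A1: gtttacaaaatatttttgcaaaaggctaaa

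Signals are given as log2 values relative to the 75th percentile of the same array, so that 0 is the 75th percentile, and a difference is HAY minus CON on this log2 scale. The level of a probe depends on its sequence, so levels are compared between calves and not between probes. Median spot intensity was 215 to 241 on the HAY arrays and 182 to 229 on the CON arrays, and 81.5 to 84.6% of spots were well above background. The number of arrays limits the precision. Of 17 squamous epithelial marker genes, all were measured, and 12 lay above the 75th percentile on average, KRT5, KRT14 and IVL among them. Of the 17, 13 had a difference above 0 (median 0.21), and the log2 of the summed signal of all 17 was 8.29 to 8.51 in HAY and 7.83 to 8.28 in CON. The 4 below 0 included KRT4 at -2.32 (adjusted p = 0.163 by limma), LOR at -1.02 and KRT5 at -0.10. KRT4 was well above background in 4 CON calves and in 0 HAY calves. It was thus tested only through the group where it is high, and its difference sets no fold. With normexp background correction the KRT4 difference was -0.68. Markers of other tissue layers were measured too. All 11 smooth muscle markers had a difference below 0, with a median of -1.25, and so did all 11 tested fibroblast and matrix markers, with a median of -1.47. The same held for all 10 endothelial markers (median -0.78), and for 8 of 9 macrophage and granulocyte markers (median -0.91). None of these 5 lists had a marker past the adjusted threshold. The log2 of the summed smooth muscle marker signal was 3.58 to 4.77 in HAY and 4.84 to 6.03 in CON, and that of the macrophage and granulocyte markers was 2.73 to 2.88 in HAY and 3.38 to 4.00 in CON. The groups overlapped for the fibroblast markers, at 4.02 to 6.20 in HAY and 5.63 to 7.89 in CON, and for the endothelial markers, at 1.27 to 2.92 in HAY and 2.47 to 3.66 in CON. Bright markers weigh most in such sums, whereas the mean log2 deviation from the 7 calves weighs all markers alike. On that score the smooth muscle groups overlapped (-1.14 to -0.05 in HAY, -0.11 to 1.58 in CON). So did the squamous groups (-0.08 to 0.19 in HAY, -0.33 to 0.10 in CON). The macrophage and granulocyte groups did not (-0.66 to -0.25 in HAY, 0.21 to 0.59 in CON). In these bulk samples a smaller share of a cell type and less RNA per cell cannot be told apart, and the part of epithelial and other cell shares in the results below was not tested. The HAY arrays lay in one row of the slide and the CON arrays in the other, so the row on the slide cannot be told apart from the feeding.

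No gene of the respiratory chain or ATP synthase passed the adjusted threshold between HAY and CON. Most of the differences were small, with 60 of 85 above 0 and 25 below 0. A probe was tested where 3 or more of the 7 arrays read it well above background. This held for 85 of the 91, and the fit covered all 12604 probes that met it. At an adjusted p under 0.05 (limma, Benjamini-Hochberg), 0 of the 85 were called, beside 0.00793% of all probes tested. At an unadjusted p under 0.05, 2 were higher in HAY (NDUFA3 and UQCRB), beside 6.78% of all probes, and 1 was lower (COX7B2), beside 7.16%. The 3 HAY values and the 4 CON values did not overlap for 2 genes that were higher in HAY (NDUFA3 and NDUFB3), beside 6.55% of all probes. They did not overlap for 2 that were lower (COX7B2 and NDUFS5), beside 5.29%. At the unadjusted threshold the member shares were 2.35% higher and 1.18% lower, and without overlap they were 2.35% in each direction. Each of these was below its background. Only 1 of the 12604 probes passed the adjusted threshold, so 0 of 85 there says little about the members.

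The intervals bound how large a difference these 7 calves leave room for. For 79 of 85 members (92.9%), the 95% confidence interval of the difference lay within 2-fold in either direction, against 72.2% of all probes tested. It lay within 1.5-fold for 59 members (69.4%), against 36.2% of all probes. The 6 members whose interval reached past 2-fold were NDUFA11, UQCRB, COX5A, COX7B2, COX8B and NDUFA4L2. With normexp background correction, 82 of 85 member intervals lay within 2-fold, against 85.9% of all probes. Members were also brighter, with 63 of 85 at or above the 75th percentile on average, against 3712 of 12604 probes. The share of differences above 0 was 70.6% among members and 54.5% among all probes, and it changed with scaling, to 43.5% of members (37 above and 48 below 0) and 56.4% of all probes after quantile normalization. The median member difference was 0.04, against 0.03 for all probes.

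**Figure D1:**
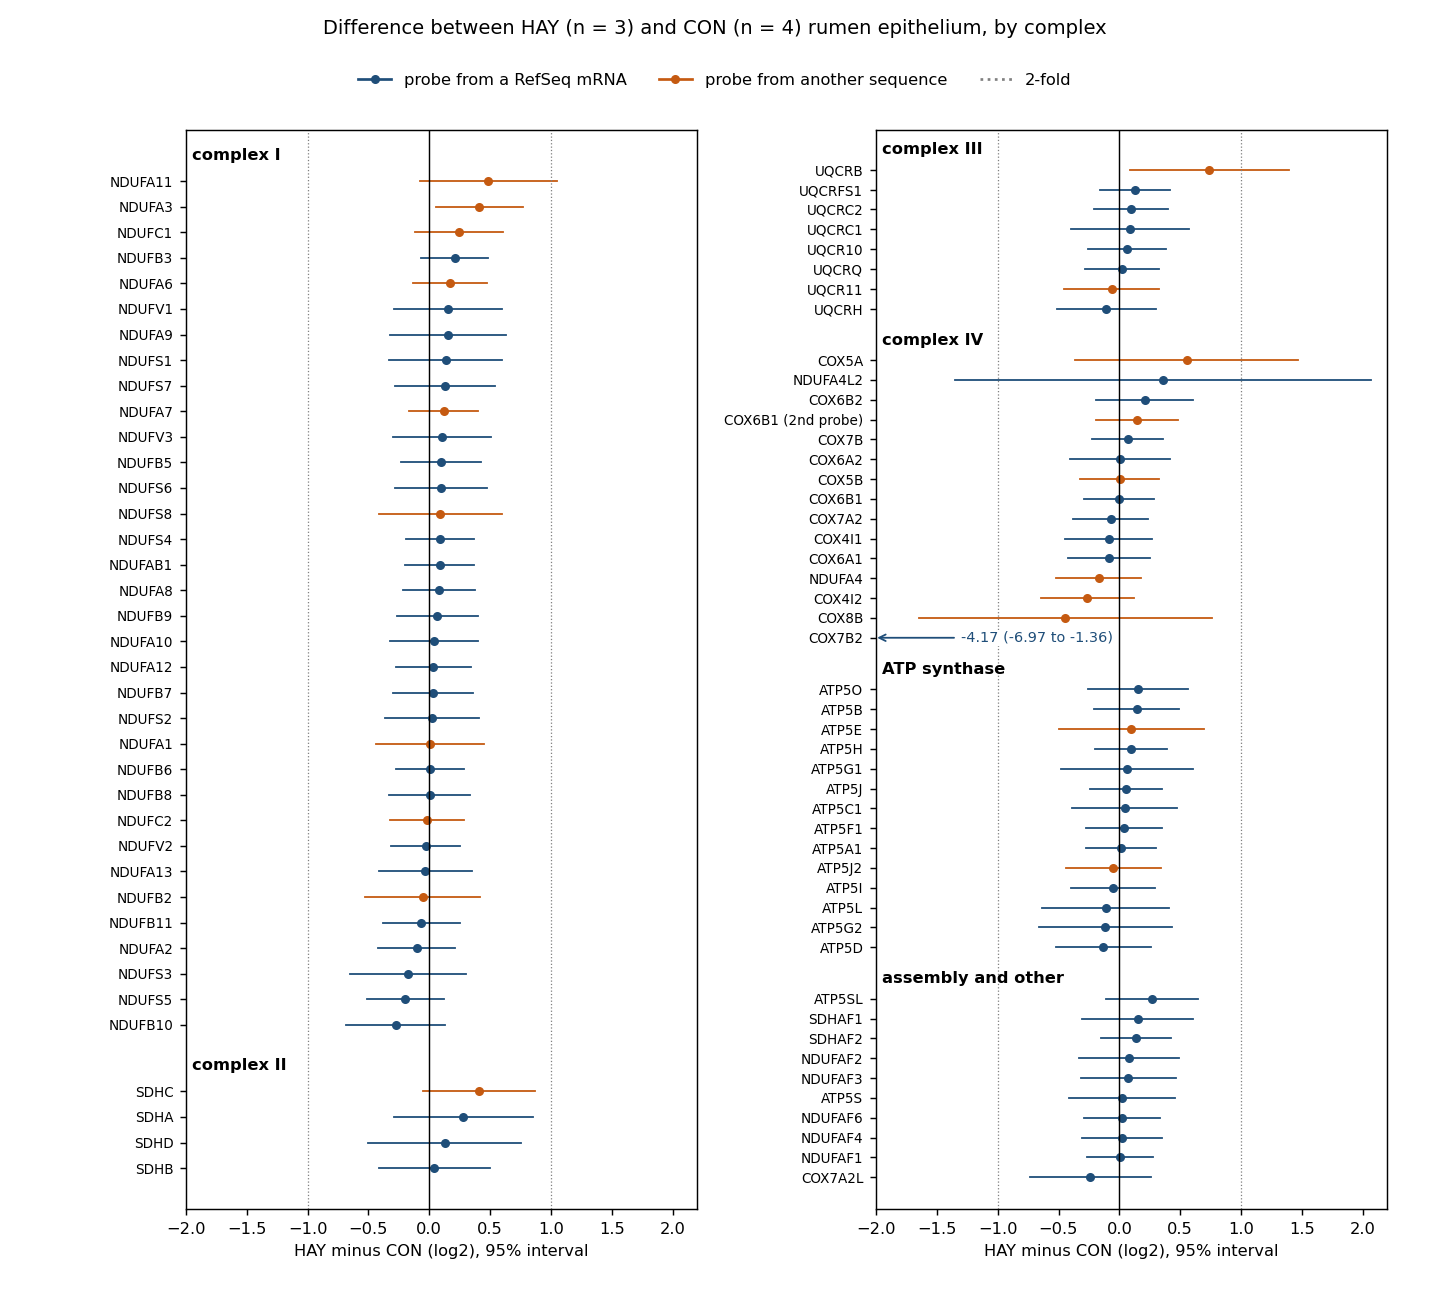
Difference between HAY (n = 3) and CON (n = 4) for each of the 85 tested probes, in log2 units, with its 95% confidence interval, grouped by complex and coloured by the kind of sequence the probe was made from. Dotted lines mark 2-fold; 79 intervals lie between them, and the COX7B2 interval, from -6.97 to -1.36, runs off the left edge.

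Complex I, the NADH dehydrogenase, was represented by 37 subunit probes, of which 34 were tested. Of these, 25 had a difference above 0 and 9 below 0, with a median of 0.07 (all probes 0.03). Quantile normalization gave 13 above and 21 below 0, and leaving out CON calf 8 gave 18 and 16. The 7 nuclear core subunits, which carry the flavin and iron-sulfur centres, had a median of 0.09. NDUFV1, which binds NADH, had 5.37 ± 0.08 in HAY and 5.21 ± 0.32 in CON (SD, n = 3 and 4), a difference of 0.15 with an interval from -0.29 to 0.60. NDUFS1, the largest core subunit, differed by 0.13 (-0.33 to 0.60), and NDUFS3 by -0.17 (-0.65 to 0.30). These intervals all include 0.

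NDUFA3, an accessory subunit of the membrane arm, read -3.40, -3.35 and -2.92 in HAY calves 9, 10 and 13, against -3.66, -3.67, -3.62 and -3.58 in CON calves 8, 11, 12 and 14. Every HAY calf lay above every CON calf, with HAY calf 13 apart from the other two. The difference was 0.41 (SE 0.15, 1.33-fold higher in HAY), with an adjusted p = 0.315 (limma). The probe was dim, far below the 75th percentile. With normexp the NDUFA3 difference was 0.26, as it was without HAY calf 13.

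NDUFB3, another membrane arm subunit, read 3.85, 3.95 and 3.84 in HAY calves, against 3.65, 3.68, 3.76 and 3.59 in CON calves. The groups did not overlap, and the difference was 0.21 (SE 0.12, adjusted p = 0.473 by limma). NDUFS5, an accessory subunit facing the intermembrane space, read 5.39, 5.34 and 5.11 in HAY calves, against 5.39, 5.52, 5.61 and 5.39 in CON calves. Its groups met within rounding, with a difference of -0.20 (SE 0.14, adjusted p = 0.545 by limma).

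The largest differences in complex I were 0.48 for NDUFA11 and -0.28 for NDUFB10. NDUFA11, a membrane subunit, read -6.92, -6.26 and -6.30 in HAY calves, against -7.43, -6.70, -6.99 and -6.80 in CON calves. HAY calf 9 lay among the CON calves, and the interval ran from -0.08 to 1.05. With normexp the NDUFA11 difference was 0.03. NDUFB10, a membrane arm subunit on a brighter probe, read 4.24, 4.38 and 3.93 in HAY calves, against 4.35, 4.47, 4.74 and 4.27 in CON calves. Its groups overlapped, with an interval from -0.68 to 0.13. NDUFA5, NDUFB1 and NDUFB4 were not tested: NDUFA5 and NDUFB4 were well above background on 1 array each and NDUFB1 on none.

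Complex II, succinate dehydrogenase, belongs both to the citric acid cycle and to the respiratory chain. All 4 of its subunits were tested and had a difference above 0 (54.5% of all probes), with a median of 0.20 (all probes 0.03). After quantile normalization or without CON calf 8, 3 of 4 did. The largest was SDHC, a membrane anchor, which read -1.49, -1.08 and -1.01 in HAY calves, against -1.98, -1.52, -1.51 and -1.39 in CON calves. HAY calf 9 lay within the CON range, and the difference was 0.41 (SE 0.20, adjusted p = 0.398 by limma). SDHA, the flavoprotein, read -1.15, -0.91 and -1.90 in HAY calves, against -1.69, -1.36, -1.71 and -1.65 in CON calves. HAY calf 13 was the lowest of all 7 calves and the other HAY calves were the highest, so that the difference of 0.28 had an interval from -0.29 to 0.85. SDHB, the iron-sulfur subunit, differed by 0.04 (-0.42 to 0.50) and SDHD, the other anchor, by 0.13 (-0.50 to 0.75). The median of the 4 subunits ranged from 0.05 to 0.34 when single calves were left out.

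Complex III, which transfers electrons from ubiquinol to cytochrome c, had 8 tested probes, 6 above and 2 below 0. Their median was 0.08 (all probes 0.03). The counts were 4 and 4 after quantile normalization, and 5 and 3 without CON calf 8. UQCRB, a small subunit near the ubiquinone site, read -4.58, -3.64 and -3.53 in HAY calves, against -5.03, -4.57, -4.47 and -4.54 in CON calves. HAY calf 9 lay at the level of CON calves 11, 12 and 14, while HAY calves 10 and 13 were above all CON calves. The difference was 0.74 (SE 0.28, 1.67-fold higher in HAY), with an adjusted p = 0.322 (limma). With normexp it was 0.38. The other members differed by less. UQCRFS1, the Rieske iron-sulfur protein, differed by 0.13 (-0.16 to 0.42) and UQCRC2, a core protein, by 0.10 (-0.21 to 0.40). UQCRH, which helps bind cytochrome c, differed by -0.11 (-0.51 to 0.30), and its sign turned without HAY calf 13.

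Complex IV, cytochrome c oxidase, was represented by 17 probes, of which 15 were tested. Here 7 lay above and 8 below 0, with a median of -0.003. After quantile normalization 5 lay above and 10 below 0, with a median of -0.13 (all probes 0.05), and the counts were also 5 and 10 without CON calf 8. COX4I1, the common form of subunit 4, differed by -0.09 (-0.44 to 0.27), COX5B by 0.0037 (-0.32 to 0.33), COX7B by 0.07 (-0.22 to 0.36) and COX7A2 by -0.07 (-0.38 to 0.24). NDUFA4, once assigned to complex I and now placed in complex IV, differed by -0.17 (-0.52 to 0.18). COX5A, a subunit used in most tissues, was well above background on 3 arrays, those of HAY calves 10 and 13 and CON calf 8. It had the largest difference above 0 in the complex, 0.55 (-0.37 to 1.47), which was -0.01 with normexp.

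The 2 COX6B1 probes gave differences near 0. The chromosome 18 probe read 6.52, 6.49 and 6.44 in HAY calves, against 6.36, 6.45, 6.56 and 6.58 in CON calves, a difference of -0.003 (-0.29 to 0.28). The chromosome 5 probe read 1.73, 1.94 and 1.99 in HAY calves, against 1.57, 1.73, 1.74 and 1.94 in CON calves, a difference of 0.14 (-0.19 to 0.48). Whether the chromosome 5 probe reads the COX6B1 messenger RNA or a near-identical copy was not tested.

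The 3 widest ranges in complex IV, those of COX7B2, NDUFA4L2 and COX8B, belonged to isoforms and paralogues of the common subunits. COX7B2, which in humans is known from testis, had raw signals of 3.16, 36.0 and 2.58 intensity units in HAY calves 9, 10 and 13. In CON calves 8, 11, 12 and 14 they were 40.8, 193, 34.7 and 499 units. The signal was well above background in all 4 CON calves and in HAY calf 10, and HAY calves 9 and 13 hold the surrogate value that the scanner software puts in for signals at background. On the log2 scale it read -9.22, -5.71 and -9.73 in HAY, against -5.50, -3.28, -5.46 and -1.97 in CON. On this scale HAY calf 10 lay just below the lowest CON calves, and the groups did not overlap. In raw signal the groups did overlap, with HAY calf 10 (36.0) above CON calf 12 (34.7). The CON calves themselves spread widely, with an SD of 1.73 log2 units. The fit gave -4.17 (SE 1.20, interval -6.97 to -1.36) with an adjusted p = 0.257 (limma). Because 2 of the 3 HAY values are surrogates, this value sets no fold, and the probe reached the filter on dim probes through the CON calves, where it is high. With normexp the COX7B2 difference was -1.38 with adjusted p = 0.302. Over all alternatives in which it was tested, including leaving out each calf, its adjusted p stayed between 0.237 and 0.763.

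COX8B, the muscle and heart form of subunit 8 in other mammals, read -0.90, -0.40 and -2.27 in HAY calves, against -1.08, -0.05, -0.33 and -1.54 in CON calves. HAY calf 13 and CON calf 14 were low and the groups overlapped, with a difference of -0.44 (-1.65 to 0.76) whose sign turned without HAY calf 13. COX6A2, another striated muscle form, differed by 0.005 (-0.40 to 0.42). COX4I2, known from lung, differed by -0.26 (-0.64 to 0.12), and COX6B2, known from testis, by 0.21 (-0.19 to 0.61). Of 11 striated muscle marker probes, 6 were tested and 5 of these had a difference above 0 (median 0.28). With normexp 2 of the 6 did (median -0.04). The probes of MYH1, MYH2, MYH7, RYR1 and TNNT3 were not well above background on enough arrays.

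NDUFA4L2, a paralogue of NDUFA4 that is induced under low oxygen in human cells, read -0.85, 0.31 and 0.05 in HAY calves, against -1.09, -1.40, -1.20 and 1.60 in CON calves. The HAY calves all lay above 3 of the CON calves, and CON calf 14 lay above all others. The difference was 0.36 (SE 0.73, interval -1.35 to 2.07), and without CON calf 14 it was 1.07 with adjusted p = 0.214 (limma). COX7A1 and COX8A were well above background on no array.

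**Figure D2:**
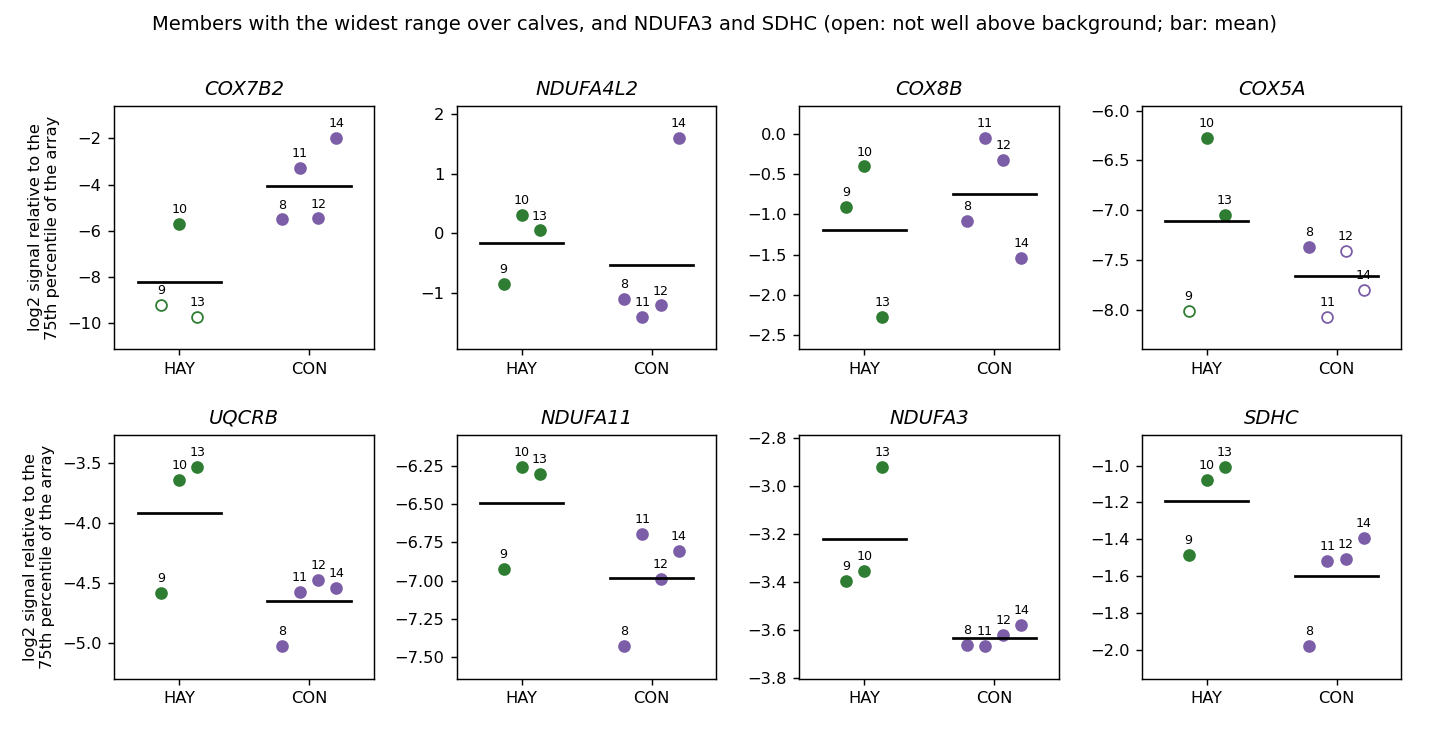
Log2 signal relative to the array's 75th percentile in each calf (number beside the point) for the 6 members with the widest range over calves and for NDUFA3 and SDHC, HAY left and CON right, with the group mean as a bar and open points where the signal was not well above background. HAY calves 9 and 13 are open for COX7B2, and CON calf 14 stands at 1.60 for NDUFA4L2.

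Within single arrays, the shift of 1 isoform or paralogue relative to its partner can be followed for 5 pairs. Each value is the log2 deviation of the first gene from its mean over calves minus that of the second. For NDUFA4L2 against NDUFA4 it was -0.44, 0.85 and 0.51 in HAY calves, against -1.04, -0.87, -0.96 and 1.96 in CON calves. For COX6B2 against COX6B1 it was 0.10, 0.05 and 0.21 in HAY calves, against -0.31, -0.11, -0.02 and 0.07 in CON calves. Both pairs overlapped between groups because of CON calf 14. The differences of COX4I2 against COX4I1 (-0.17), COX6A2 against COX6A1 (0.09) and ATP5G1 against ATP5G2 (0.18) also lay within overlapping groups.

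The ATP synthase was represented by 15 probes, of which 14 were tested, 9 above and 5 below 0, with a median of 0.04. After quantile normalization 4 lay above and 10 below 0, with a median of -0.05 (all probes 0.05). Median centring gave a median of 0.10 (all probes also 0.10), and without CON calf 8 the counts were 7 and 7. All 14 intervals lay within 2-fold. ATP5A1, the alpha subunit of the catalytic head, read 7.25, 7.26 and 7.09 in HAY calves, against 7.14, 7.11, 7.25 and 7.23 in CON calves. Its whole range over the 7 calves was 0.16, or 1.12-fold, and the difference was 0.01 (-0.27 to 0.30). ATP5B, the beta subunit, differed by 0.14 (-0.21 to 0.49). The largest differences were 0.15 for ATP5O, which joins the head to the peripheral stalk, and -0.13 for ATP5D, the delta subunit of the central stalk. ATP5O read 4.50, 4.68 and 4.55 in HAY calves, against 4.30, 4.10, 4.65 and 4.64 in CON calves, and ATP5D read 4.19, 4.32 and 4.33 in HAY calves, against 4.09, 4.40, 4.71 and 4.46 in CON calves. In both genes the groups overlapped.

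Subunit c, which forms the rotating ring, is encoded by 3 genes for the same mature protein. ATP5G1 read 4.92, 5.11 and 5.28 in HAY calves, against 4.86, 4.68, 5.03 and 5.60 in CON calves, a difference of 0.06 (-0.48 to 0.60). ATP5G2 read 6.94, 7.32 and 6.43 in HAY calves, against 6.86, 7.19, 7.22 and 6.79 in CON calves, a difference of -0.12 (-0.66 to 0.43). The signs of both turned when HAY calf 13 was left out. ATP5G3 was well above background on no array, and the scanner software gave it a surrogate value on 6 of 7.

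Of the 10 assembly factors and other matches, 9 had a difference above 0 and 1 below, with a median of 0.05 (all probes 0.03). After quantile normalization 8 lay above and 2 below 0. The complex I assembly factors NDUFAF1, NDUFAF2, NDUFAF3, NDUFAF4 and NDUFAF6 lay between 0.002 and 0.08. ATP5SL, named after an ATP synthase gene and known in humans as a complex I assembly factor, read 0.91, 1.21 and 1.38 in HAY calves, against 0.76, 0.79, 0.96 and 1.08 in CON calves, a difference of 0.27 (-0.11 to 0.65). COX7A2L, which helps join complexes III and IV into supercomplexes, read 3.62, 3.45 and 2.81 in HAY calves, against 3.40, 3.52, 3.72 and 3.49 in CON calves. HAY calf 13 was low, and the difference was -0.24 (-0.73 to 0.26), or 0.004 without that calf.

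The members were also compared calf by calf. The median deviation of a calf from the mean of the 7 calves, over all members, was 0.02 to 0.08 in HAY calves and -0.13 to 0.10 in CON calves, so the HAY calves fell inside the CON range. CON calf 8 had the lowest value in 31 of 85 members (36.5%, against 22.2% of all probes tested), and CON calf 12 the highest in 27 (31.8%, against 10.7%). Both counts depended on scaling. CON calf 8 was lowest in 11 members after quantile normalization, and CON calf 12 was highest in 33 after quantile normalization and in 14 with median centring, where HAY calf 13 was highest in 23. CON calf 8 also had the highest smooth muscle and fibroblast marker scores (1.58 and 1.54, mean log2 deviation from the 7 calves), and the part of this in its low values was not tested. Without CON calf 8, 46 of 85 differences were above 0, against 53.6% of all probes then, and without calves 8 and 13, with the highest and lowest such scores, 49 were.

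**Figure D3:**
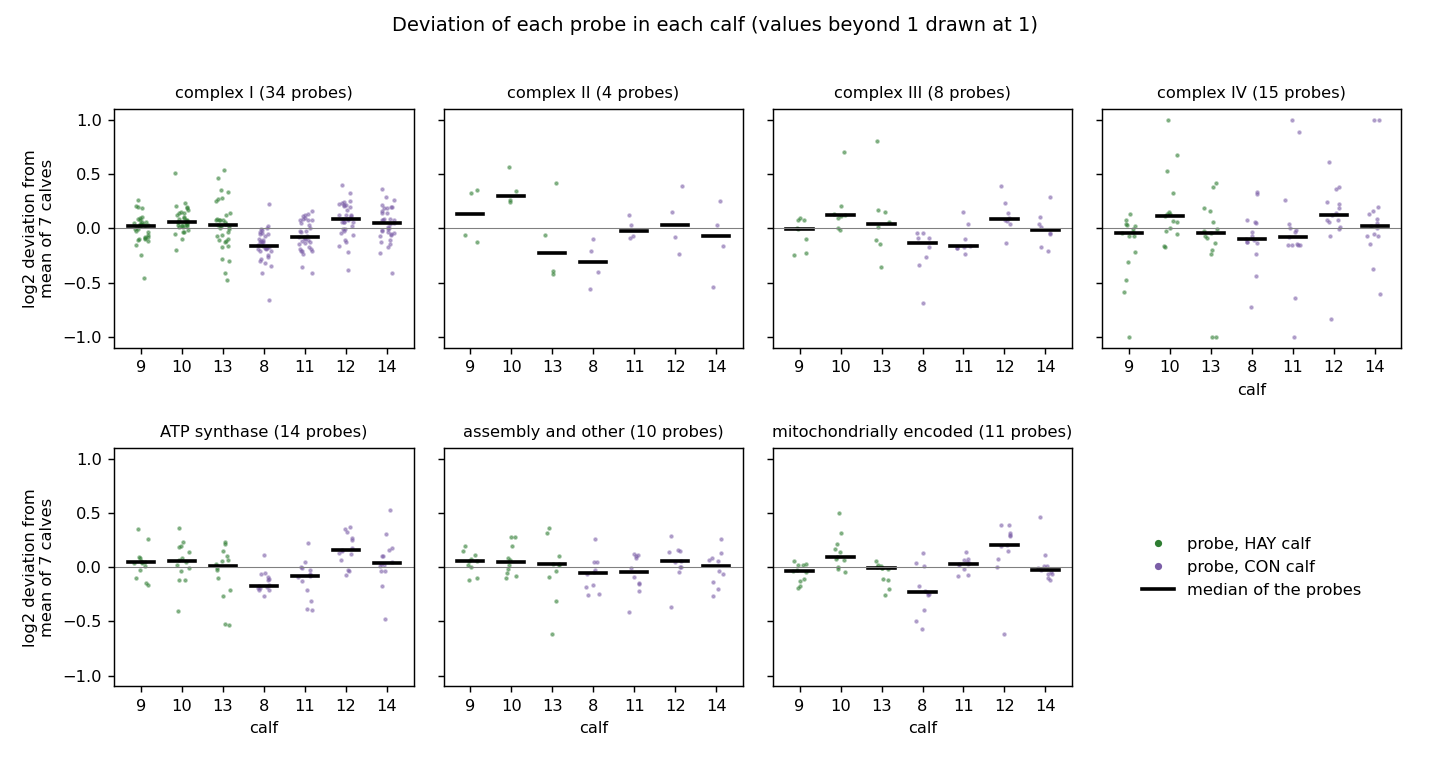
Deviation of each tested probe from its mean over the 7 calves (log2), by calf and by complex, with the mitochondrially encoded subunits in the last panel, HAY calves 9, 10 and 13 left and CON calves 8, 11, 12 and 14 right. Black bars are medians over the probes of a panel. By complex they run from -0.31 (complex II, CON calf 8) to 0.30 (complex II, HAY calf 10). Medians over all members, which have no panel, lie between -0.13 and 0.10.

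The range of these genes from calf to calf was narrower in the median than that of the array's probes as a whole. The range over the 7 calves had a median of 0.53 log2 units (1.44-fold) for the members, against 0.80 (1.75-fold) for all probes tested. It exceeded 2-fold in 6 of 85 members (7.06%), against 37.1% of all probes. Among probes with a mean above the 75th percentile, where signal is far from background, it exceeded 2-fold in 0 of 63 members, against 22.3% of 3712 probes. The median SD within groups was 0.19 for members and 0.27 for all probes. Among the probes at or above the 75th percentile, the median range was 0.44 for members and 0.62 for all. The median SD within groups was 0.16 and 0.21 there. The 6 members with the wider range were the same 6 whose interval reached past 2-fold. Both measures come from the same 7 values of a probe, so this is no separate result.

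**Figure D4:**
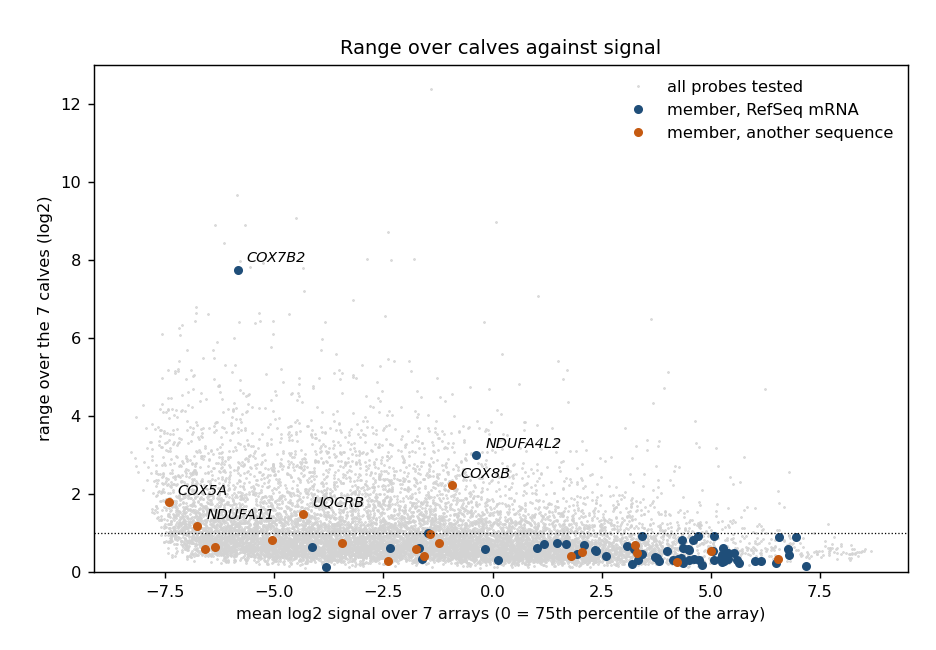
Range over the 7 calves (log2) against mean signal for all 12604 tested probes (grey) and for the 85 members, coloured by the kind of sequence the probe was made from. The dotted line marks a 2-fold range, above which 6 members lie, all of them with a mean signal below the array's 75th percentile.

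The kind of sequence behind a probe went with its signal. Of the 91 probes, 65 were made from RefSeq messenger RNAs and 26 from other GenBank sequences or Ensembl transcripts. Of the RefSeq probes, 9 of 65 (13.8%) lay below the 75th percentile, and all were tested. Of the others, 19 of 26 (73.1%) lay below it, and the 6 untested members were all among them. Over all probes on the array the shares below the 75th percentile were 71.5% of RefSeq probes and 87.2% of others. The letters AATAAA were present in 15 of the 65 RefSeq member probes (23.1%), among them the chromosome 18 probe of COX6B1 shown above, and in 1 of the 26 others. They were in 10.5% of all RefSeq probes and 6.51% of all others on the strand that the files print. On the opposite strand (TTTATT) they were in 2 of the 65 and 2 of the 26 member probes. NDUFA3, UQCRB, NDUFA11, SDHC and COX5A, the members with the largest differences above 0, were all read by probes of the second kind. Whether such a probe reads the mature transcript of its gene was not tested.

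Genes of the same pathway whose names the rule does not take gave a similar picture. Of 11 tested subunits encoded in mitochondrial DNA, 3 were saturated, COX2 and COX3 on all 7 arrays and ATP6 on 4. Of the other 8, 5 differences were above and 3 below 0, with a median of 0.05. ND5 differed by 0.23 (-0.27 to 0.73), CYTB by 0.05 (-0.40 to 0.50) and ND1 by -0.01 (-0.35 to 0.33). CYCS, cytochrome c itself, differed by 0.31 (-0.41 to 1.03) and CYC1, the cytochrome of complex III, by 0.01 (-0.29 to 0.31). Of 28 other assembly factors tested, 21 were above and 7 below 0, with a median of 0.09 and 0 past the adjusted threshold. Over all probes 54.5% were above 0, with a median of 0.03. Counts of this list after quantile normalization are not given here. COX15, needed for the heme of complex IV, differed by 0.54 (SE 0.20, adjusted p = 0.304 by limma). Of 16 tested regulators of mitochondrial biogenesis, 8 were above and 8 below 0. PPARGC1B, a coactivator of these genes, differed by 0.59 (0.05 to 1.14, adjusted p = 0.333 by limma) and by 0.29 with normexp. TFAM, which packages and transcribes mitochondrial DNA, differed by -0.09 (-0.45 to 0.27), and PPARGC1A was not tested because it was well above background on 1 array.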

How the data were processed

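Total RNA (500 ng per calf) was amplified and labelled with Cy3, per the labels' protocols. Spot intensity in the deposited scanner files is linear and background-subtracted, per the file headers; the software was Agilent Feature Extraction 9.5, per the submitters' processing notes. A deposited table of the series gives log2 values, and each of its columns matched the scanner signal after subtraction of the array's 75th percentile. Spots with outlier flags and control spots were left out, log2 values of a probe's spots were averaged, and each array's 75th percentile was subtracted. Probes that 3 or more of 7 arrays read well above background were compared between HAY and CON with limma 3.58.1 (lmFit, eBayes) in R 4.3.3, per probe, with Benjamini-Hochberg adjustment over all 12604 and a threshold of 0.05. The fit was tested on simulated data.

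Calves were grouped by the labels, and each counted as 1 replicate. All 7 arrays lay on 1 slide. Members and gene lists were chosen with earlier results of these data known. Named genes were, in each complex, the members with the largest difference in each direction, those without overlap between groups at an unadjusted p under 0.05, isoform pairs, members with 2 probes and members dim in a group. Other members appear with their difference and its interval or SE. NDUFB3, NDUFS5 and ATP5A1 are among these others, though their values are given in each calf. Their single differences were not among those recomputed for the named members below. Marker lists of T and NK cells (3 of 8 tested above 0), B and plasma cells (4 of 5), adipocytes (1 of 2), erythroid cells (3 of 3) and nerve and glia (5 of 5) were also tabulated, and none had a marker past the adjusted threshold. The reference gene table (ARS-UCD2.0) was used for names only, and matched 11194 probes. Coordinates are the files' own. Promoter and protein sequences were not used here. Alternatives covered scaling, background correction, filters, slide column, the deposited table, names, and leaving out calves.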

Additional observations from a re-analysis of the deposited data

Results flagged for a closer look

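NDUFA4L2 in CON calf 14 stood far from the other CON calves, at 1.60 on the log2 scale, with a gap to the next CON calf that made up 0.898 of the group's whole range. It was the only such value among 32 results examined in the CON group, and chance alone marks about 1 in 20. Without CON calf 14 the NDUFA4L2 difference was 1.07.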

How the results depend on the processing

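No paired analysis was possible because the calf numbers are not shared between HAY and CON. The slide column, fitted as a block, sets HAY calves 9, 10 and 13 against CON calves 11, 12 and 14, and leaves CON calf 8, alone in its column, without weight in the difference, so that its differences equal those without CON calf 8. Under each of 16 alternatives, 0 members passed the adjusted threshold, and over 373 recomputed differences of 25 named members the lowest adjusted p was 0.112 (UQCRB without HAY calf 9, limma). The count at an unadjusted p under 0.05 and higher in HAY was 0 to 5 when single calves were left out. It was 1 when the slide column was fitted as a block, and 1 without calves 8 and 13, an alternative chosen after seeing the data. The count lower in HAY was 0 where all 7 arrays had to be well above background, which removes COX7B2, and 2 when the slide column was a block. The share over all probes is not given for these alternatives, so these counts are not read as above or below a background. Quantile normalization put 37 differences above 0 and gave medians of -0.020 for complex I, -0.034 for complex III and -0.13 for complex IV (all probes 0.048). Median centring gave 0.11 for the assembly factors and other matches (all probes 0.097). The causes were not tested. With single calves left out, medians were 0.01 to 0.11 for complex I, 0.05 to 0.34 for complex II, 0.01 to 0.12 for complex III, -0.06 to 0.02 for complex IV, -0.03 to 0.06 for the ATP synthase and 0.03 to 0.08 for the rest. Then 46 to 63 differences lay above 0, and 78 to 80 intervals lay within 2-fold, against 63.8 to 72.4% of all probes.

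Of the 373 differences, 24 reversed in direction, in 9 members. Leaving out single calves reversed 8 of these members, with ranges of -0.057 to 0.25 for ATP5G1, -0.33 to 0.12 for ATP5G2, -0.40 to 0.0037 for COX7A2L, -0.19 to 0.041 for UQCRH, -0.19 to 0.0037 for COX4I1, -0.16 to 0.16 for COX6A2, -0.046 to 0.027 for the chromosome 18 probe of COX6B1 and -0.84 to 0.096 for COX8B. Leaving out HAY calf 13 reversed 7 of them, all but COX6A2. Without calves 8 and 13 ATP5G1 was -0.085, ATP5G2 0.067, UQCRH 0.013 and COX6A2 -0.023. With normexp COX5A was -0.0061, COX6A2 -0.029 and COX6B1 0.0091. ATP5G1 was -0.045 after quantile normalization, COX6A2 -0.029 with the slide column as a block, and COX6B1 0.061 with median centring and 1.9e-05 with the deposited table. Values of probes near background depended on the correction: COX7B2 was -4.17 with the processed signal and -1.38 with normexp.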
